A study of Homo sapiens with 4 samples.

Results

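Collagen genes were taken as the rows whose symbol is COL, a number, A and a number, which gave 44 genes of the 58365 in the expression table. They were measured by RNA sequencing of whole, unsorted cultures of the human embryonic stem cell line H1 at day 2 of hematopoietic differentiation. All cultures received activin A and BMP4, the factors that start mesoderm formation, in a custom mTeSR1 medium. The 2 libraries named IWP2 came from cells also given IWP2, which blocks Porcupine, the enzyme that lipidates Wnt ligands so that they can leave the cell. The 2 libraries named DMSO were without IWP2 and carry the name of its usual solvent. One cell line and one day were sampled, the dose of IWP2 is not in the labels, and the labels and the study's methods exchange the concentrations of activin A and BMP4, so none is given here. Nothing in the labels says that libraries of a group came from separate cultures, so the p-values below measure only the spread between these libraries, which may be technical.

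Collagens are secreted proteins in which 3 polypeptide chains wind into a triple helix built on a repeat of glycine and 2 further residues. Fibrillar collagens (types I, II, III, V, XI, XXIV and XXVII) form cross-striated fibers, with type V and XI chains setting their start and width. Type IV collagens form the network of basement membranes. The remaining types include the beaded filaments of type VI, the FACIT collagens that sit on fibril surfaces, the multiplexins and the membrane-spanning collagens. Cells that leave an epithelium at the primitive streak cross a basement membrane and enter the matrix beyond it. Collagens are therefore often followed in this process. The deposited values are FPKM, fragments scaled to the length of the transcript and to the mapped fragments of the library, which allows levels of different genes to be set side by side. FPKM does not fix the total of a library, and the totals ran from 616418 to 653850.

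Several collagen genes stand in pairs in the genome. The printed sequences set side by side the start regions of COL4A1 and COL4A2 and of COL4A5, from the other expressed type IV pair. They also show those of COL5A1 and COL11A1, related fibrillar genes chosen because they moved in opposite directions. COL4A1 and COL4A2, which encode partner chains, lie head to head on chromosome 13. In the file's coordinates (GRCh38) COL4A1 spans chr13:110148963-110307149 on the minus strand and COL4A2 spans chr13:110305812-110513027 on the plus strand, with 1338 bases in common. In RefSeq on GRCh38.p14 their transcription starts lie 126 bases apart, and the whole stretch between them is printed below on the plus strand (chr13:110307158-110307283). It is followed by the 250 bases upstream of the start of COL5A1 (chr9:134641553-134641802, plus strand), of COL11A1 (chr1:103108523-103108772, minus strand) and of COL4A5 (chrX:108439588-108439837, plus strand), each read 5′ to 3′. Capitals mark the GC box GGGCGG and the CCAAT box, on either strand.
COL4A1-COL4A2: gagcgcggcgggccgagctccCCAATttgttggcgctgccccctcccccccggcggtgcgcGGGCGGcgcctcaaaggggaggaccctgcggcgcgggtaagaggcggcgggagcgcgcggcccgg
COL5A1: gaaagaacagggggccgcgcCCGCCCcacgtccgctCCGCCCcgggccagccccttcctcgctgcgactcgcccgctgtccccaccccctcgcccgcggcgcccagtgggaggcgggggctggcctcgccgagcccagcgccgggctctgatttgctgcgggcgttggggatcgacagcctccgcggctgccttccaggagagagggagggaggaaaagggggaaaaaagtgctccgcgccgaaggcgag
COL11A1: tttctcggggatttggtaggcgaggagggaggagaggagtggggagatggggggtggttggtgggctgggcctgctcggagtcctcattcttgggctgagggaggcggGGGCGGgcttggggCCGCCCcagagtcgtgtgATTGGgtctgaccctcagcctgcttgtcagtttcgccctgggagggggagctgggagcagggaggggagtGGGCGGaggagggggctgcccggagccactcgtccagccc
COL4A5: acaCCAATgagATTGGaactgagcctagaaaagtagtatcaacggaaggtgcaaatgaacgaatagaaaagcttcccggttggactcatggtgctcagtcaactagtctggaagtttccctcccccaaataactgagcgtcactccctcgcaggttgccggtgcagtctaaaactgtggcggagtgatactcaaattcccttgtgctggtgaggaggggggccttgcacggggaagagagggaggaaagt

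The stretch shared by COL4A1 and COL4A2 holds 1 GC box and 1 CCAAT box and is 80.2% G or C. The COL5A1 window holds 2 GC boxes and no CCAAT box at 74% G or C, and the COL11A1 window holds 3 GC boxes and 1 CCAAT box at 68.8%. The COL4A5 window holds no GC box and 2 CCAAT boxes at 51.2%. Its head-to-head neighbor COL4A6 has annotated starts 379 and 1415 bases away on the other strand, and the windows of COL4A6 are not printed. Of the 44 collagens, 32 had upstream sequence in the RefSeq table. The GC box was in the 250 bases upstream of a start in 21 of these 32 genes and in 46.2% of all 27305 genes with sequence, counting every annotated start, overlapping matches and both strands. CCAAT was in 11 of 32 (37% of all genes) and TATAAA in 7 of 32 (13%). The TCF/LEF words CTTTGAA and CTTTGAT, bound by the factors that work with β-catenin, were in 2 of 32 (7.24%), COL13A1 and COL26A1. The E-box CAGGTG, bound by SNAI1, was in 5 of 32 (20.6%), COL4A3, COL4A4, COL8A2, COL9A2 and COL16A1. These matches describe letters in a short window and say nothing of whether a factor was bound.

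The classes also differed in the exons that encode them. The choice of genes by symbol did not use exon lengths. The classes, however, follow the structure of the encoded collagen, so this difference is descriptive only. In GENCODE 29, 47% of the coding exons of the 11 fibrillar genes were exactly 54 bases long, which is 6 turns of the 9-base repeat that encodes glycine and 2 residues. The share was 4.04% for the 6 basement membrane genes, 14.9% for the 27 other collagens and 0.657% for all 19951 protein-coding genes. Single genes of the other class ranged from 0% in COL26A1 to 43.8% in COL9A2, COL9A3 and COL22A1, beside 43.9% in COL5A1. COL5A1 had 66 coding exons, 29 of them of 54 bases, COL5A2 had 54 with 24 such exons, COL11A1 had 67 with 31, and COL4A1 had 52 with 2. The coding exons of COL26A1, which has 13, included none of this length.

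Before the collagen values, the libraries and their labels were compared. The libraries of one group correlated at Pearson r = 0.972 (DMSO) and 0.98 (IWP2) over tested genes, and libraries of different groups at 0.927 to 0.938. The step worth 1 fragment in genes with a single transcript gave a rough estimate of depth, 18000000 to 22200000 fragments per library. This step was looked for only within a fixed narrow range of values, which limits in advance where the estimate can fall. The primitive streak and nascent mesoderm markers were called lower with IWP2 in 6 of 6 genes, and 4 of 6 pluripotency markers were called higher. Among these, MESP1 (47.6 and 74.6 FPKM with DMSO, 0.244 and 0.087 with IWP2) reached the filter only through its DMSO libraries. SOX2 (0.193 and 0.174 FPKM with DMSO, 35.6 and 36.1 with IWP2) reached it only through its IWP2 libraries, so neither call carries weight. Among 6 fibroblast and stromal markers, DCN was listed at 0 in 3 libraries and at 0.00705 FPKM in the other. LUM was at 3.1 and 2.8 FPKM with DMSO and at 0.108 and 0.178 with IWP2, and THY1 was called higher (89.1 and 83 FPKM, 114 and 119). The summed level of all 6 was 150 and 112 FPKM with DMSO and 153 and 154 with IWP2. THY1 made up most of this sum in every library. POSTN, which was not called, was at 48.9 and 17.8 FPKM with DMSO and at 28 and 25.6 with IWP2. Of 5 endothelial markers, PECAM1 and CDH5 stayed below 0.5 FPKM, KDR (53.2 and 60.4 FPKM with DMSO, 38.6 and 35.7 with IWP2) and TEK were called lower, and CD34, at 1.79 to 5.43 FPKM, was not called. Of 4 blood markers, GATA1 was listed at 0 in every library and PTPRC and SPN stayed below 0.5 FPKM. RUNX1 was at 2.51 and 2.35 FPKM with DMSO and at 0.21 and 0.35 with IWP2. LUM and RUNX1 were below 1 FPKM in both IWP2 libraries and reached the filter only through their DMSO libraries, so no test is given for them.

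Genes were tested with limma on log2(FPKM + 1) where the mean over the 4 libraries was at least 1 FPKM, and a gene was called when its Benjamini-Hochberg adjusted p over all 14022 genes tested was under 0.05. Of the 44 collagens, 25 passed this filter and 19 did not. With IWP2, 9 of the 25 were called lower and 4 were called higher, and 12 were not called. Over all genes tested, 8.44% were called lower and 6.75% higher. The median log2 change was -0.21 for the tested collagens and -0.0168 for all genes tested. Fibrillar genes had 3 lower and 1 higher of 7 tested, basement membrane genes 2 lower and 0 higher of 4, and the other collagens 4 lower and 3 higher of 14, and no difference between classes was tested. One of the higher genes, COL9A1, reached the filter only through its IWP2 libraries, and without it the collagens numbered 9 lower and 3 higher of 24. With limma at an unadjusted p below 0.05 the collagens numbered 12 lower and 6 higher. The counts rested on all 4 libraries: without either IWP2 library 2 collagens were called lower and 0 higher (9 and 5 at an unadjusted p below 0.05), without the first DMSO library 6 and 3, and without the second 5 and 3. With library totals set equal 8 collagens were called lower, and with upper quartile scaling 5. The libraries are bulk samples, so fewer cells that express a gene and less RNA per cell cannot be told apart.

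**Figure D1:**
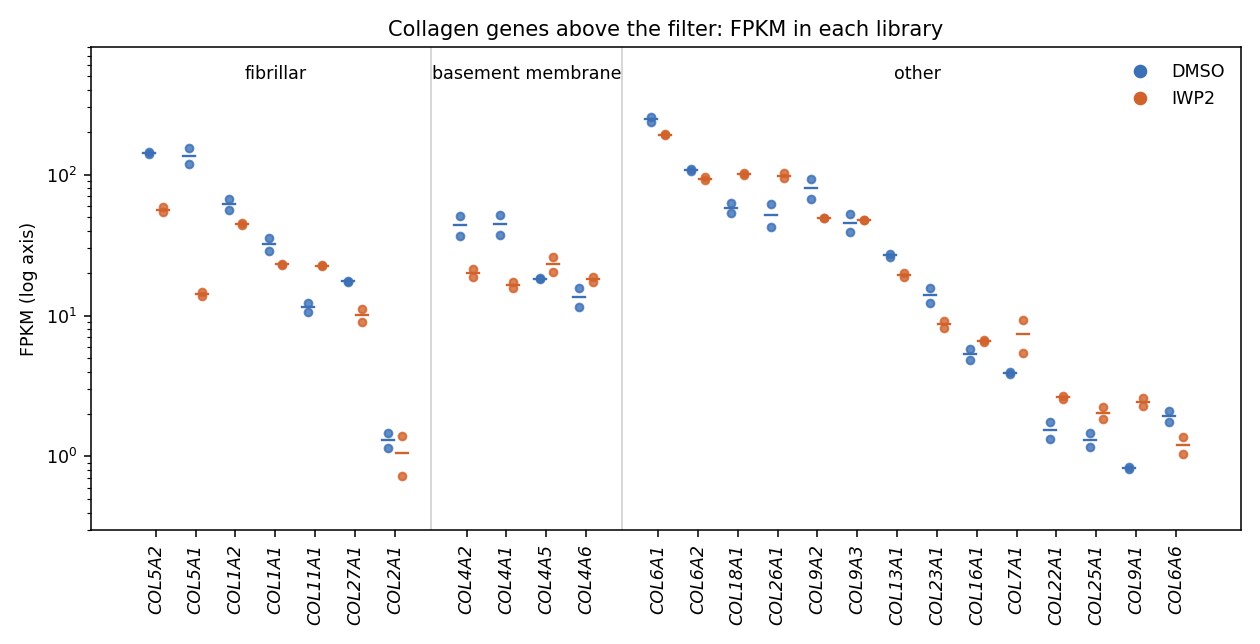
Level of each of the 25 tested collagen genes in each library (vertical axis, FPKM on a log axis; genes in 3 classes on the horizontal axis; points are libraries and short lines group means; blue DMSO, orange IWP2). COL5A1 stands at 119 and 154 FPKM in the DMSO libraries and at 14.7 and 13.8 in the IWP2 libraries, while COL6A1 is the highest collagen in all 4.

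**Figure D2:**
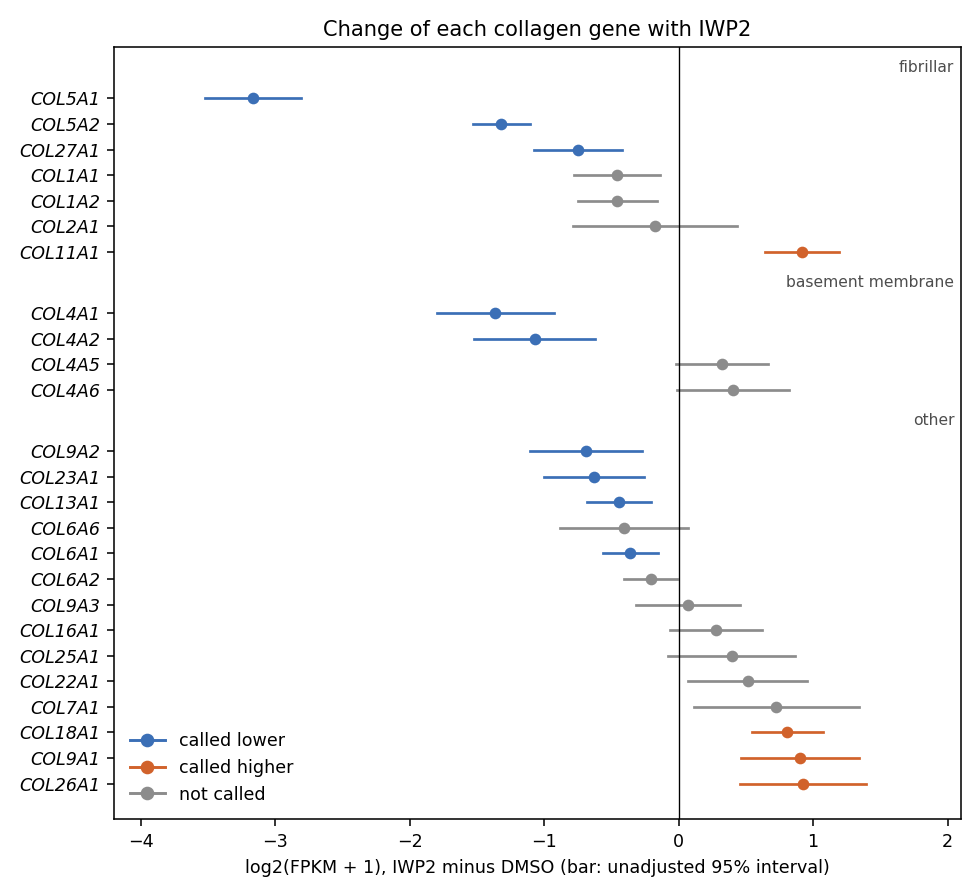
Difference of each tested collagen between IWP2 and DMSO on the log2(FPKM + 1) scale (horizontal axis), with its unadjusted 95% interval as a bar, grouped by class. Blue genes were called lower (9), orange higher (4) and grey were not called (12). COL9A1, among the orange genes, reached the filter only through its IWP2 libraries.

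The fibrillar class changed most in COL5A1, which encodes the α1 chain of type V collagen (chr9:134641774-134844843). Its level was 119 and 154 FPKM in the DMSO libraries and 14.7 and 13.8 FPKM in the IWP2 libraries. The groups were far apart, and the mean was 9.6-fold lower with IWP2 (log2 change -3.17, SE 0.14, limma adjusted p = 0.00048). COL5A2, which encodes the α2 chain of the same molecule (chr2:189031896-189179879), stood at 140 and 144 FPKM with DMSO and at 58.5 and 54.3 FPKM with IWP2. This was a 2.52-fold lower mean (log2 change -1.32, SE 0.08, adjusted p = 0.00115). COL5A1 and COL5A2 were the collagens called in every one of the 13 alternative settings. COL5A3, which encodes the remaining type V chain, stayed between 0.0335 and 0.107 FPKM.

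COL11A1 encodes a type XI chain close in structure to the type V chains (chr1:102876467-103108496), and it moved the other way. It was at 12.3 and 10.7 FPKM with DMSO and at 22.4 and 22.7 FPKM with IWP2, a 1.97-fold higher mean (log2 change 0.92, SE 0.11, adjusted p = 0.00709). COL5A1 was the more abundant of these 2 genes in the DMSO libraries, and COL11A1 was the more abundant in the IWP2 libraries. Of the summed FPKM of these 2 genes, COL11A1 made up 9.34% and 6.48% with DMSO and 60.4% and 62.3% with IWP2. COL27A1, a fibrillar collagen of cartilage, was at 17.3 and 17.7 FPKM with DMSO and at 11.2 and 9 FPKM with IWP2 (log2 change -0.75, SE 0.13, adjusted p = 0.0208).

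The type I genes, which encode the most abundant collagen of connective tissue, were not called. COL1A2 was at 55.9 and 67.5 FPKM with DMSO and at 45.3 and 43.8 FPKM with IWP2, and COL1A1 had group means of 32.2 and 23 FPKM. Both had every IWP2 library below every DMSO library, with a log2 change of -0.46 each (adjusted p = 0.0584 for COL1A2 and 0.0739 for COL1A1). Without the first DMSO library, which leaves the spread to the IWP2 libraries, both genes were called lower (log2 change -0.61 and adjusted p = 0.0467 for COL1A1, -0.59 and 0.0445 for COL1A2). Over all 13 alternatives the adjusted p ran from 0.0467 to 0.286 for COL1A1 and from 0.0445 to 0.271 for COL1A2. COL2A1, the main cartilage collagen, had group means of 1.31 and 1.06 FPKM that overlapped between libraries (log2 change -0.18, 95% interval -0.79 to 0.44). COL3A1, the type III partner of type I in soft tissue, averaged 0.334 FPKM with DMSO and 0.385 with IWP2 and was not tested, although it lies tail to tail with COL5A2 at a distance of 19149 bases.

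The 6 basement membrane genes form 3 head-to-head pairs, of which COL4A1 and COL4A2 were called. COL4A1 was at 52 and 37.5 FPKM with DMSO and at 17.4 and 15.7 FPKM with IWP2, a 2.7-fold lower mean (log2 change -1.36, SE 0.17, adjusted p = 0.00818). COL4A2 was at 51.1 and 36.6 FPKM with DMSO and at 21.5 and 18.7 FPKM with IWP2, a 2.18-fold lower mean (log2 change -1.07, SE 0.18, adjusted p = 0.0185). These 2 genes encode the chains of the type IV collagen found in nearly all basement membranes, and their first DMSO library was the higher one for both. The kit named for these libraries does not mark strand, so reads from the 1338 bases that the genes share cannot be assigned to one of them by strand.

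COL4A5 and COL4A6, the pair on chromosome X, encode chains of basement membranes in kidney, eye, smooth muscle and a few other tissues. COL4A5 was at 18.4 and 18.1 FPKM with DMSO and at 26 and 20.5 FPKM with IWP2 (log2 change 0.32, 95% interval -0.02 to 0.66, adjusted p = 0.187). COL4A6 had group means of 13.5 and 18 FPKM (log2 change 0.40, 95% interval -0.01 to 0.82, adjusted p = 0.174). Neither passed the test, though in both the IWP2 libraries lay above the DMSO libraries. The remaining pair, COL4A3 and COL4A4, which serves the glomerular basement membrane, stayed at or below 0.199 FPKM. The level of COL4A1 was 2.82 and 2.07 times that of COL4A5 in the DMSO libraries and 0.671 and 0.768 times in the IWP2 libraries.

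Among the other collagens, COL6A1, the α1 chain gene of the beaded type VI filaments, had the highest level in every library. It was at 238 and 257 FPKM with DMSO and at 192 and 193 FPKM with IWP2 (log2 change -0.36, SE 0.08, adjusted p = 0.0418). COL6A2 was at 106 and 110 FPKM with DMSO and at 91.2 and 95.8 FPKM with IWP2, which was not called (log2 change -0.21, adjusted p = 0.15). COL6A3, the usual partner of both in the type VI molecule, averaged 1.02 and 0.632 FPKM in the groups, so that COL6A2 was 101 to 223 times as abundant as COL6A3. COL6A6, a chain that can take its place, averaged 1.92 and 1.21 FPKM and was not called, and COL6A5 averaged 0.438 and 0.228 FPKM.

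COL18A1, a multiplexin of basement membranes whose carboxyl end is the source of endostatin, was at 62.4 and 53 FPKM with DMSO and at 103 and 99.9 FPKM with IWP2. The mean was 1.76-fold higher (log2 change 0.81, SE 0.10, adjusted p = 0.00899). It shares 20149 bases with SLC19A1 on the opposite strand, which was at 13.6 and 15 FPKM with DMSO and at 16.3 and 14.2 with IWP2 and was not called. COL26A1 was at 61.8 and 42.4 FPKM with DMSO and at 102 and 94.2 FPKM with IWP2, a 1.88-fold higher mean (log2 change 0.92, SE 0.18, adjusted p = 0.0308). In the DMSO libraries COL18A1 and COL26A1 ranked 6 to 8 among collagens by level, and in the IWP2 libraries 2 to 4.

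The 3 genes of type IX, a FACIT collagen best known from cartilage, differed from each other. COL9A2 was at 93.8 and 67.6 FPKM with DMSO and at 49.2 and 48.9 FPKM with IWP2 (log2 change -0.69, SE 0.16, adjusted p = 0.0493). COL9A3 averaged 45.6 and 47.4 FPKM, with overlapping libraries (log2 change 0.07, 95% interval -0.31 to 0.45). COL9A1 was at 0.84 and 0.82 FPKM with DMSO and at 2.26 and 2.58 FPKM with IWP2, a 2.92-fold higher mean. Since it reached the filter only through its IWP2 libraries, no test is given for it. Its tail-to-tail neighbor COL19A1, also a FACIT collagen, lies 5084 bases away and was at 1.12 and 1.07 FPKM with DMSO, at 0.0306 in the second IWP2 library and listed at 0 in the first. The mean of COL19A1 over the 4 libraries lay below the filter. It was above 1 FPKM only in its DMSO libraries, so no test is given for it.

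Of the membrane-spanning collagens, COL13A1 and COL23A1 were called lower. COL13A1, found at cell contacts and the neuromuscular junction, was at 25.9 and 27.5 FPKM with DMSO and at 18.7 and 20.1 FPKM with IWP2 (log2 change -0.44, SE 0.09, adjusted p = 0.0371). COL23A1 was at 15.7 and 12.3 FPKM with DMSO and at 8.18 and 9.11 FPKM with IWP2 (log2 change -0.63, SE 0.15, adjusted p = 0.0478). COL25A1, the other tested member of this kind, averaged 1.31 and 2.04 FPKM and was not called. Group means of the remaining tested collagens, none of them called, were 5.31 and 6.61 FPKM for COL16A1, 3.91 and 7.36 for COL7A1, which forms the anchoring fibrils of skin, and 1.55 and 2.62 for COL22A1.

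The 19 collagens below the filter had no value above 1.44 FPKM, and 14 of them were below 1 FPKM in every library. They were COL3A1, COL5A3, COL11A2 and COL24A1 of the fibrillar class, COL4A3 and COL4A4 of the basement membrane class, and COL6A3, COL6A5, COL8A1, COL8A2, COL10A1, COL12A1, COL14A1, COL15A1, COL17A1, COL19A1, COL20A1, COL21A1 and COL28A1. All 3 hexagonal network collagens, types VIII and X of vessels, the cornea and growth cartilage, were in this set. COL8A1 reached 1.22 FPKM in the first DMSO library and 0.147 in the second.

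Summed over all members of a class, the level was lower with IWP2 in the fibrillar and basement membrane classes, and the groups overlapped for the other collagens. Fibrillar genes summed to 376 and 432 FPKM with DMSO and to 178 and 170 FPKM with IWP2, a ratio of 2.32 between the means. Of this difference, 90.4% came from COL5A1 and COL5A2, and without them the class summed to 117 and 134 FPKM with DMSO and 105 and 102 FPKM with IWP2. Basement membrane genes summed to 137 and 104 FPKM with DMSO and to 84 and 72.4 FPKM with IWP2, a ratio of 1.54. Without COL4A1 and COL4A2 this class summed to 34.1 and 29.5 FPKM with DMSO and to 45 and 38 FPKM with IWP2, so the difference then pointed the other way. The other collagens summed to 677 and 628 FPKM with DMSO and to 637 and 636 FPKM with IWP2. They include COL18A1, a multiplexin of basement membranes, at 62.4 and 53 FPKM with DMSO and at 103 and 99.9 with IWP2. The lower basement membrane sum thus describes the type IV genes only. The fibrillar share of all collagen message was 31.6% and 37.1% with DMSO and 19.8% and 19.3% with IWP2. These sums are given as values, since an exact two-sided permutation test of 2 libraries against 2 cannot give a p below 0.333.

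**Figure D3:**
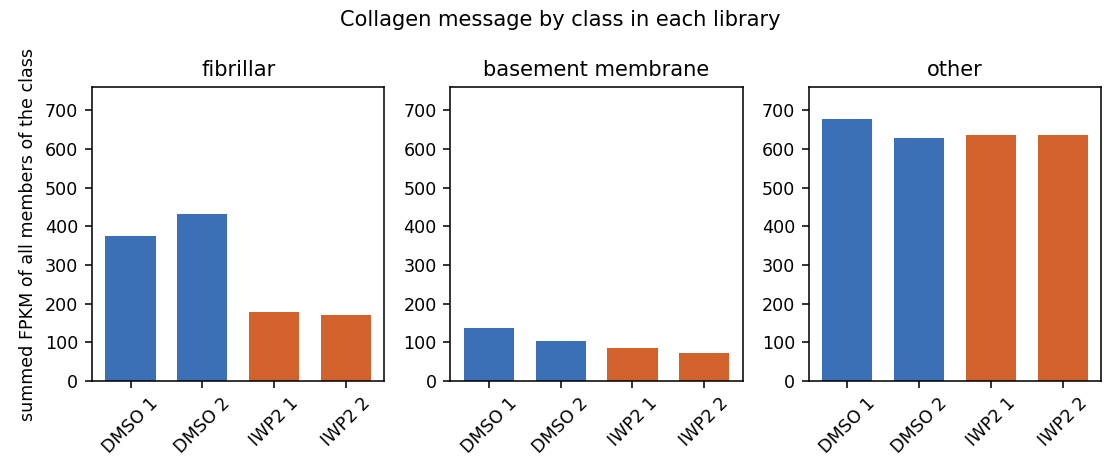
Summed FPKM of all members of each class (vertical axis, from 0) in each of the 4 libraries (bars; blue DMSO, orange IWP2). The fibrillar sum is 376 and 432 FPKM with DMSO against 178 and 170 with IWP2, and the sums of the other collagens lie between 628 and 677 in all libraries.

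Ratios between chains that are built into one molecule were read from FPKM and were not tested. The COL1A1 to COL1A2 ratio of FPKM was 0.514 and 0.529 with DMSO and 0.506 and 0.529 with IWP2, although a type I molecule holds more α1 than α2 chains. The COL5A1 to COL5A2 ratio was 0.851 and 1.07 with DMSO and 0.251 and 0.253 with IWP2. The COL4A1 to COL4A2 ratio was 1.02 and 1.03 with DMSO and 0.81 and 0.841 with IWP2, and the COL9A2 to COL9A3 ratio was 1.79 and 1.74 with DMSO and 1.04 and 1.03 with IWP2. In these 3 pairs the groups did not overlap, and the libraries of one group lay closer to each other than to the other group. Such a split is weak by itself, since an exact two-sided permutation test of these libraries cannot give a p below 0.333. The share of other gene pairs that split in this way was not computed. COL6A1 to COL6A2 also differed without overlap, at 2.24 and 2.33 against 2.1 and 2.01, and COL4A5 to COL4A6 overlapped between 1.18 and 1.59.

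**Figure D4:**
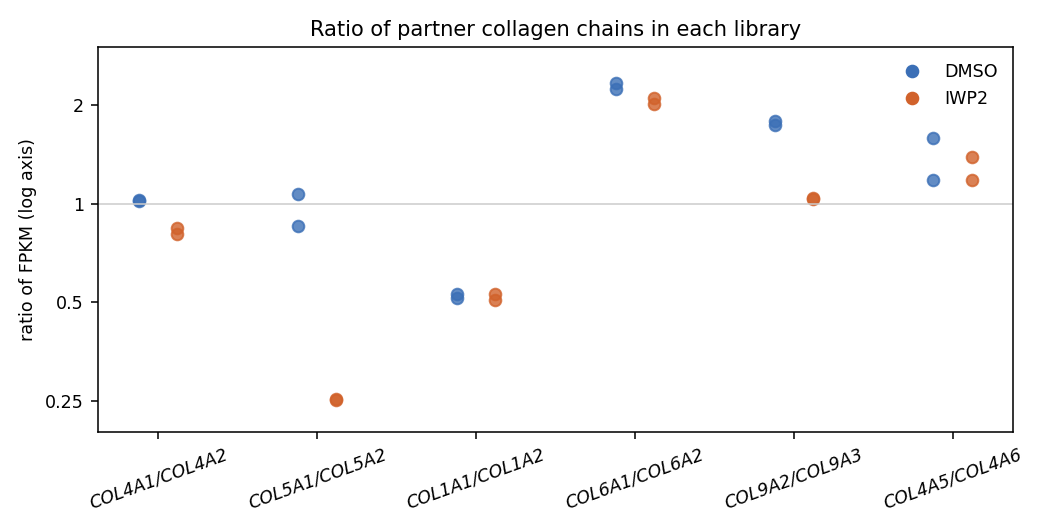
Ratio of FPKM between partner collagen chains in each library (vertical axis, log scale; one column per pair; points are libraries, blue DMSO and orange IWP2; the grey line marks equal levels). The COL5A1 to COL5A2 ratio is near 1 with DMSO and 0.251 and 0.253 with IWP2, while COL1A1 to COL1A2 stays between 0.506 and 0.529.

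The enzymes and receptors that make and bind collagens were read from a list of 47 genes, of which 37 passed the filter. With IWP2, 7 of the 37 were called lower and 1 was called higher, beside 8.44% lower and 6.75% higher over all genes tested. The median log2 change was -0.22, against -0.0168 for all genes. Without DDR2, which reached the filter only through its DMSO libraries, the counts were 6 lower and 1 higher of 36. The 7 lower genes were in modification (4 of 12 tested), cross-linking (2 of 4) and receptors (1 of 6). None of the 5 folding, 5 export and 5 propeptide processing genes tested was called.

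P3H2, a prolyl 3-hydroxylase known to act on type IV collagen, changed most. It was at 143 and 146 FPKM with DMSO and at 31.6 and 33 FPKM with IWP2, a 4.47-fold lower mean (log2 change -2.13, SE 0.08, adjusted p = 0.000301). P4HA2, a catalytic subunit of prolyl 4-hydroxylase, was at 10.9 and 8.88 FPKM with DMSO and at 5.03 and 5.02 with IWP2 (log2 change -0.85, adjusted p = 0.0172). P3H1, which hydroxylates the fibrillar chains, was at 54.8 and 58.2 FPKM with DMSO and at 34.8 and 34.6 with IWP2 (log2 change -0.69, adjusted p = 0.00756). PLOD2, a lysyl hydroxylase of the collagen ends, was at 40.6 and 39.9 FPKM with DMSO and at 23.6 and 27 with IWP2 (log2 change -0.65, adjusted p = 0.0147). P4HA1, the catalytic relative of P4HA2, averaged 23.7 and 19.9 FPKM and P4HB, the partner of P4HA1 and P4HA2, 283 and 246 FPKM. Neither P4HA1 nor P4HB was called.

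SERPINH1, the collagen chaperone HSP47, was at 488 and 465 FPKM with DMSO and at 389 and 415 with IWP2, which was not called (log2 change -0.24, adjusted p = 0.121). Of the copper enzymes that cross-link collagen, LOXL1 fell from 6.35 and 6.05 FPKM to 3.28 and 3.23 FPKM (log2 change -0.76, adjusted p = 0.0182) and LOXL2 from 26.1 and 22.9 FPKM to 17.1 and 15 FPKM (log2 change -0.58, adjusted p = 0.0315). LOX itself averaged 2.91 and 1.27 FPKM and was not called (adjusted p = 0.121). Without the second DMSO library it was called lower (log2 change -1.07, adjusted p = 0.0486), and over its 12 alternatives the adjusted p ran from 0.0486 to 0.355.

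Of the receptors, DDR2, a receptor tyrosine kinase for fibrillar collagen, was at 1.66 and 1.68 FPKM with DMSO and at 0.211 and 0.544 with IWP2. Since it reached the filter only through its DMSO libraries, no test is given for it. DDR1, its relative in epithelia, averaged 69.1 and 68.8 FPKM (log2 change 0.00, 95% interval -0.34 to 0.34). The integrin β1 gene ITGB1, whose product pairs with many α chains, was at 141 and 131 FPKM with DMSO and at 195 and 178 with IWP2 (log2 change 0.45, adjusted p = 0.032). The collagen-binding α chains ITGA1, at 3.98 and 2.39 FPKM, and ITGA2, at 2.25 and 1.06 FPKM, were not called. The platelet and leukocyte receptors GP6 and LAIR1 were listed at 0 in every library.

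**Figure D5:**
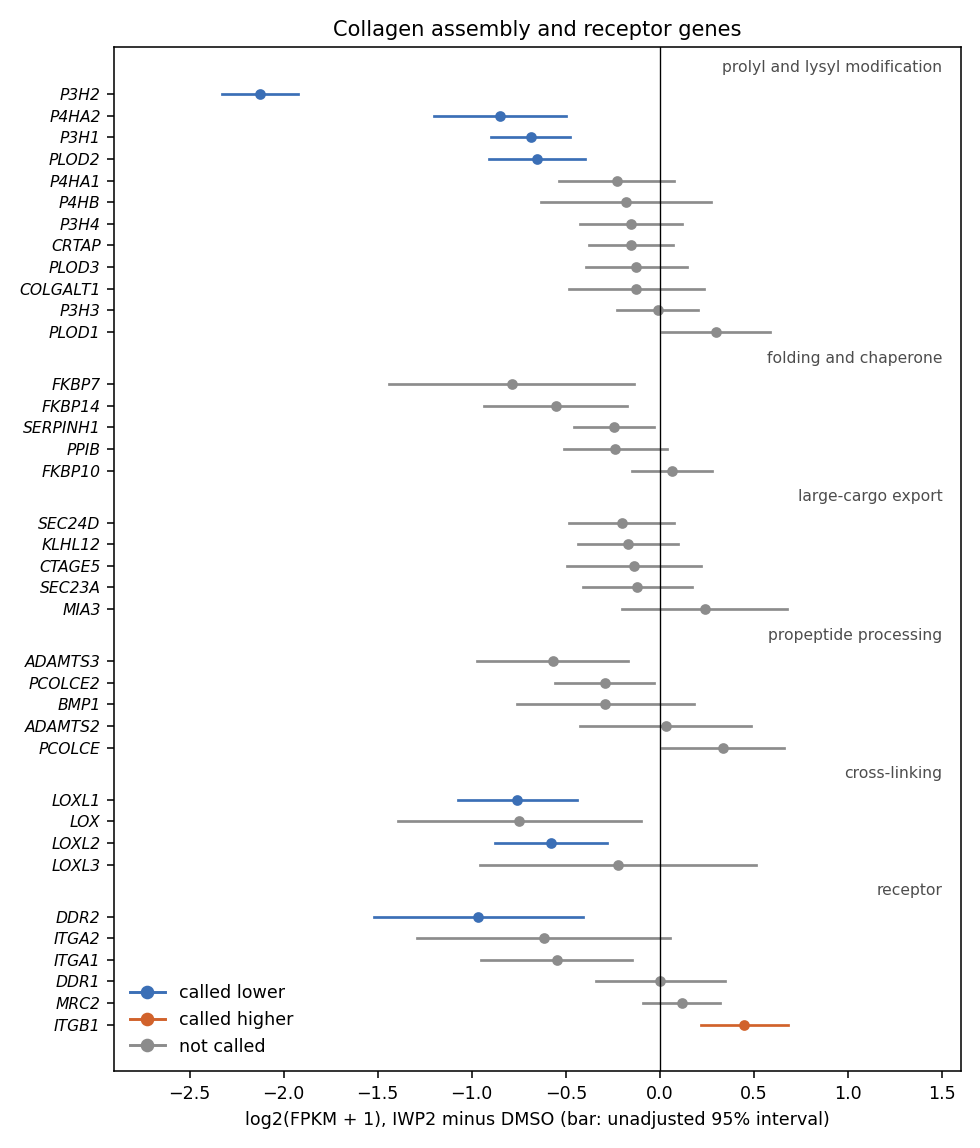
Difference between IWP2 and DMSO of each of the 37 tested assembly and receptor genes on the log2(FPKM + 1) scale (horizontal axis), with its unadjusted 95% interval as a bar, grouped by role. P3H2 at -2.13 lies farthest from 0, 7 genes were called lower (blue), 1 higher (orange) and the rest were not called (grey). DDR2, among the blue genes, reached the filter only through its DMSO libraries.

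The calls differed in how many of the alternative settings kept them. P3H2 was called in all 13 alternatives, as COL5A1 and COL5A2 were. COL4A1, COL4A2, COL11A1 and COL18A1 were called in 10 of 13 and lost the call without a filter or without either IWP2 library, with adjusted p up to 0.105 for COL4A1, 0.16 for COL4A2, 0.0991 for COL11A1 and 0.105 for COL18A1. COL26A1 was called in 9 of 13, COL27A1 in 8, COL9A2 in 6, and COL6A1, COL13A1 and COL23A1 in 4 each. With all libraries kept, COL6A1, COL9A2, COL13A1 and COL23A1 also lost the call under upper quartile scaling and without a variance trend. COL26A1 lost the call without a variance trend. COL9A1 and DDR2 are left out of this comparison, since each reached the filter only through its higher group. Among assembly genes P3H1 was called in 11 of 13, P4HA2 in 9, PLOD2 in 8, LOXL2 and ITGB1 in 7 each and LOXL1 in 7 of 12. No gene named here changed its direction while called. Markers of several cell states moved with the same contrast: streak and mesoderm markers summed to 873 and 1087 FPKM with DMSO and 49.1 and 53.2 with IWP2, endoderm markers to 1799 and 2173 against 123 and 134, or to 187 and 124 against 84.1 and 100 without CER1, and pluripotency markers to 1168 and 981 against 2374 and 2376. POU5F1 made up most of the pluripotency sum, at 751 and 571 FPKM with DMSO and 1854 and 1844 with IWP2. NANOG and LIN28A were not called. SOX17, which was not called either, made up most of the endoderm sum without CER1. Its level was 155 and 104 FPKM with DMSO and 79.7 and 94.9 with IWP2. The part of the markers in the collagen values was not tested.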

How the data were processed

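RNA of H1 cells at day 2 was sequenced in 4 libraries, 2 per group, prepared with an Illumina TruSeq RNA kit. The deposited table gives FPKM per gene as the authors computed it; the labels do not name the unit, which is taken from the description of the table. The submitters' processing notes name BWA, Bowtie, RSEM and hg19 without versions or order, but 97.3% of the identifiers carry the coordinates of GENCODE 29 on GRCh38, so GRCh38 is used here. The table has columns named with and without IWP2, and those without were taken as DMSO. Differences were fitted with limma 3.58.1 in R 4.3.3 on log2(FPKM + 1), with a variance trend and no block, over genes with a mean of at least 1 FPKM, and adjusted by Benjamini-Hochberg; a fold on this scale understates the change of low genes, and fold changes in the text are ratios of mean FPKM. FPKM are not counts, so no count test was run. Called collagens and the 3 highest of each class were named with every library, other tested ones with group means. In the assembly list at most 3 called genes per role were named by size of change, beside 9 genes fixed by name, among them PLOD2 and SERPINH1. Scripts were checked on made-up values. Members and lists were chosen with the study and earlier results of these data known. Alternatives changed the pseudocount, filter, scaling, variance prior, block and libraries used.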

Additional observations from a re-analysis of the deposited data

How the results depend on the processing

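No gene named above changed direction in any alternative that called it. Without a filter limma called 263 genes lower and 118 higher. Among collagens 3 were lower (COL5A1, COL5A2 and COL19A1) and 0 higher (7 at an unadjusted p below 0.05). The call of COL19A1 carries no weight, since it was above 1 FPKM only in its DMSO libraries. Among assembly genes 2 were lower and 0 higher (1 at an unadjusted p below 0.05). Upper quartile scaling gave 5 collagens lower. One variance prior for all genes gave 5 collagens lower and 0 assembly genes higher (1 unadjusted). Leaving out 1 library, where the lone library of a group is assumed to vary like the other group, gave 180 to 718 genes lower and 58 to 657 higher, 2 to 6 collagens lower and 0 to 3 higher, and 1 to 4 assembly genes lower and 0 higher (1 to 2 unadjusted). The lowest counts came without either IWP2 library: 2 collagens lower and 0 higher in both cases (5 higher unadjusted). The replicate numbers only name the libraries, and deviations of same-numbered libraries correlated at 0.152. With the replicate block 1065 genes were lower and 862 higher, with 6 collagens lower and 4 higher, COL6A1, COL13A1 and COL23A1 losing the call. The planned count tests were not run because the file holds no counts. The 19 collagens below the filter were left out by the chosen filter on mean FPKM. Depth was only roughly estimated at 18000000 to 22200000 fragments, and its part in their low values was not tested.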

Other observations

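COL6A4P2, a transcribed pseudogene of type VI collagen at chr3:130212823-130273806 that the symbol rule leaves out, was chosen here after its values were seen. COL6A5 begins at position 130345516 of the same chromosome, followed by COL6A6. It was at 7.43 and 11.2 FPKM with DMSO and at 1.51 and 1.22 FPKM with IWP2 (log2 change -2.11, SE 0.22, limma adjusted p = 0.00475), while COL6A5 averaged 0.438 and 0.228 FPKM and COL6A6 averaged 1.92 and 1.21 FPKM. Reads that match both a pseudogene and a type VI gene could be split by the counting, which was not tested. The antisense genes COL5A1-AS1 and COL18A1-AS2 were listed at 0 in every library.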
